A study of Neurospora crassa with 22 samples.

Results

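The genes described here are 8 genes with which *Neurospora crassa* acquires sulfur and phosphate, out of 9730 genes in the expression table. They were chosen by name and gene number, not by their values, but with earlier results of these data known. The sulfur genes are *cys-3* (NCU03536), *scon-2* (NCU08563), *cys-14* (NCU04433) and *ars-1* (NCU06041), and the phosphate genes are *nuc-1* (NCU09315), *pho-4* (NCU09564), *pho-5* (NCU08325) and *pho-2* (NCU01376). Their levels were measured by RNA-seq of germinating conidia, 3 libraries from the wild type and 3 from a strain mutated in *hH1*, the gene for the linker histone H1. Both strains were grown for 5 hr in Vogel's minimal medium with glucose, and no other treatment is stated. The levels are FPKM, a measure of fragments relative to transcript length and library depth, summed over the transcripts of a gene, and how the libraries were scaled to each other is not stated. The study lists a wild type of each mating type and *hH1* mutants of different origin, and which of these gave the RNA is not stated in the sources used here, so that genotype and strain background cannot be told apart.

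*N. crassa* controls both nutrients through a single activator each. When sulfur is scarce, the bZIP protein CYS-3 turns on the genes for sulfate permeases and arylsulfatase, and when sulfur is sufficient an SCF ubiquitin ligase with the F-box protein SCON-2 keeps CYS-3 low. When phosphate is scarce, the ankyrin repeat protein NUC-2 holds back the cyclin and kinase pair PREG and PGOV, and the bHLH activator NUC-1 then turns on repressible phosphatases and high-affinity phosphate permeases. *cys-3* lies on LG II (326313 to 331203 of the NC12 assembly), *scon-2* on LG III (4898254 to 4902879), *cys-14* on LG IV (3375754 to 3380167) and *ars-1* on LG VII (2005289 to 2007359). *nuc-1* lies on LG I (4278717 to 4281906), *pho-4* on LG VII (989341 to 993463), *pho-5* on LG IV (2396703 to 2398930) and *pho-2* on LG V (3812751 to 3815365).

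The libraries were first checked against their labels. *hH1* (NCU06863) measured 266, 327 and 293 FPKM in the wild type, against 9.35, 2.06 and 3.22 FPKM in the mutant (p = 0.1 in an exact two-sided permutation test, the lowest p possible with 3 libraries against 3). *matA-1*, the gene of the *mat A* mating type, was at 0 in all wild-type libraries, against 1.75 to 3.83 FPKM in the mutant ones. The wild type and the mutant may thus differ in mating type too, and the part of this in their differences was not tested. The sample labels call the tissue mycelium. *hex-1*, of the Woronin bodies that plug hyphal septa, was higher in the mutant without overlap, at 3190 to 5040 FPKM in wild-type and 5670 to 5930 FPKM in mutant libraries. Of the other genes of growing hyphae, *chs-1* (38.1 to 40.9 against 28.9 to 36.5 FPKM) and *chs-3* (33.3 to 36.6 against 19.5 to 26.2 FPKM) were lower in the mutant without overlap. *cot-1* overlapped (75.4 to 92.9 against 69.5 to 77.1 FPKM). None of these genes had an adjusted p under 0.05 in the limma test described below. Of all genes tested there, 21.8% were lower in the mutant without overlap and 10.4% were higher. The conidiation genes *con-6*, *con-8*, *con-10* and *eas* were at 0 to 12.1 FPKM, while *con-13* was at 0 in all libraries. Steps in the low values put the depth at about 6220000 to 10960000 fragments in the wild-type libraries and 5520000 to 8950000 in the mutant libraries. The first mutant library listed in the table stood apart in its low genes. It listed 2185 genes at 0, against 1577 to 1712 in the other libraries, and 30 of these were at 1 FPKM or more in each of the other 5 libraries, against 0 to 3 such genes elsewhere. A 0 in this table can be an estimate that was not made, since *gpd-1*, a glycolytic gene at 29400 to 37400 FPKM in the mutant, had a 0 in all of the wild-type libraries.

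In the wild type, *cys-3* was the highest of the 8 genes at 82.7 ± 10.4 FPKM (SD, n = 3), rank 991 of 9730 genes. *scon-2* (27.8 ± 4.73 FPKM), *cys-14* (25.5 ± 5.22 FPKM), *nuc-1* (25.4 ± 4.22 FPKM) and *pho-4* (19.6 ± 3.81 FPKM) followed, and neighbours among these 4 overlapped. The remaining genes were low, with 2.50 ± 0.890 FPKM for *pho-2*, 1.42 ± 0.646 FPKM for *ars-1* and 1.11 ± 0.498 FPKM for *pho-5*, all below *pho-4*, and each overlapped the next lower gene. When all genes were split into 5 groups by wild-type level, *cys-3* was in the highest group, *scon-2*, *cys-14*, *nuc-1* and *pho-4* in the next, and *pho-2*, *ars-1* and *pho-5* in the fourth. In the mutant, *pho-4* no longer overlapped *nuc-1*, its neighbour in the order.

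**Figure D1:**
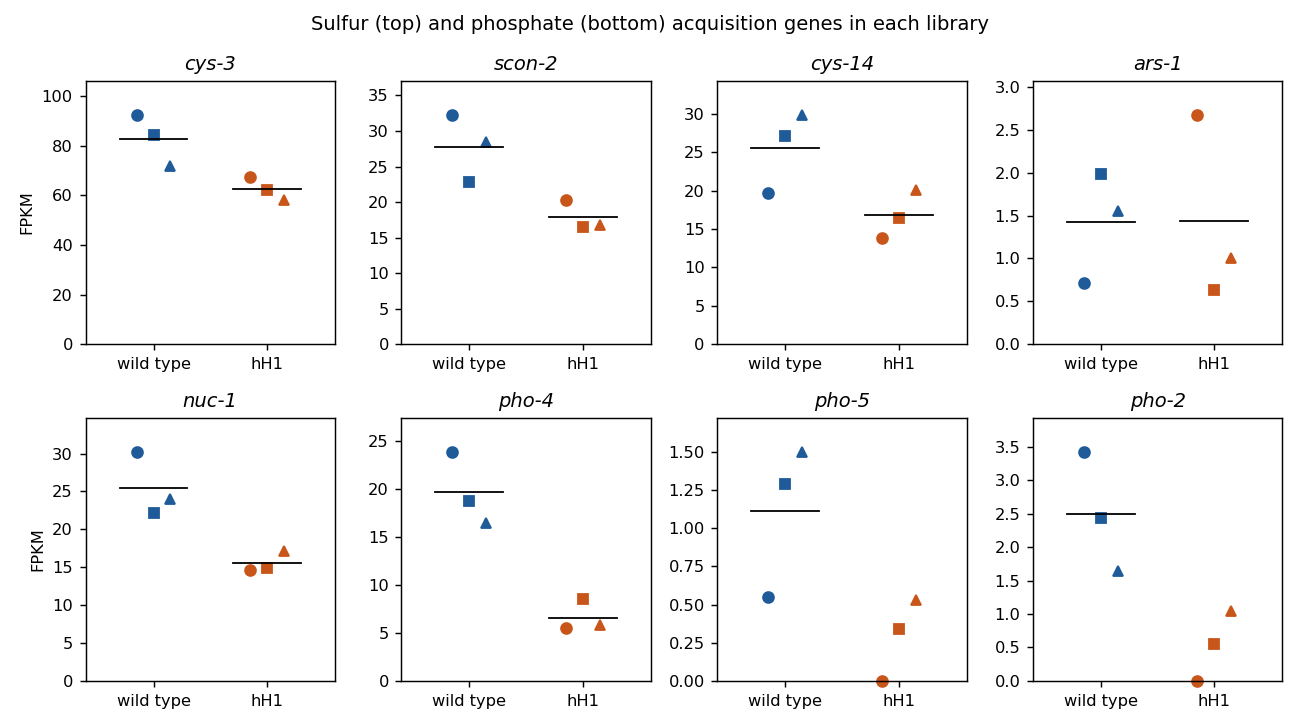
Level of the 8 genes in FPKM (vertical axes, each from 0) in the 3 wild-type (blue) and 3 *hH1* mutant (orange) libraries. Each symbol is 1 library in the order of the table (circle, square, triangle) and lines are means, drawn only where no library is at 0. The groups did not overlap for *cys-3*, *scon-2*, *nuc-1*, *pho-4*, *pho-5* and *pho-2*, and overlapped for *cys-14* and *ars-1*. Lower mutant values without overlap were seen in 21.8% of all tested genes. *pho-5* was too low to be tested, and both *pho-5* and *pho-2* were at 0 in the first mutant library.

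The comparison of the strains asks which of these genes differ in level between the wild type and the *hH1* mutant. The clearest differences were on the phosphate side, where *pho-4* and *nuc-1* were lower in the mutant and passed the test, at 33.5% and 61.1% of the wild-type mean. No sulfur gene passed it, although *cys-3*, *scon-2* and *cys-14* had means of 64.2% to 75.7% of the wild type. A gene was tested when it averaged 1 FPKM or more across the 6 libraries, and 7 of the 8 did. Of these 7, 2 were called, both lower, while 4.99% of the 7208 tested genes were called in either direction and 3.26% were called lower (limma, Benjamini-Hochberg adjusted p under 0.05). With 7 genes this share is a description and was not tested as a property of the group. All 7 had a log2 change below 0, *ars-1* by only -0.04, as did 4332 of the 7208 tested genes. The median of the 7 was -0.60, where the median of all tested genes was -0.09. In 5 of the 7, all below, the mutant libraries did not overlap the wild-type libraries, which was so, in this direction, for 21.8% of all tested genes. *pho-2* reached the limit for testing only through its wild-type level, which fixed its direction, and *pho-5* did not reach it. Leaving *pho-2* aside, the same 2 of 6 genes were called, the median was -0.59, and 4 of 6 did not overlap. The count of called genes among the 7 fell whenever 1 library was left out, which also leaves fewer libraries for the test. With any 1 library left out, *pho-4* alone was called in 5 of the 6 fits. Without the first wild-type library 0 of the 7 were called by limma, 5 of them had an unadjusted p under 0.05, and 29 genes were called in all, or 0.402%. Without the first mutant library *pho-4* was called, and 217 genes in all, or 3.01%.

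Gene length moved with the strain difference across the genome, and several of these genes are long. Over 7207 tested genes the median log2 change went from 0.12 in the fifth with the shortest genes to -0.28 in the fifth with the longest. *cys-3*, *scon-2*, *cys-14* and *pho-4* span 4123 to 4891 bases and lie between the 89.8th and the 94.7th percentile of length, *nuc-1* (3190 bases) is at 77.6, and *pho-2*, *pho-5* and *ars-1* are between 48.0 and 65.7. Log2 changes with the trend removed from each library are therefore given for the tested genes below. The part of length in them was not tested further.

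**Figure D2:**
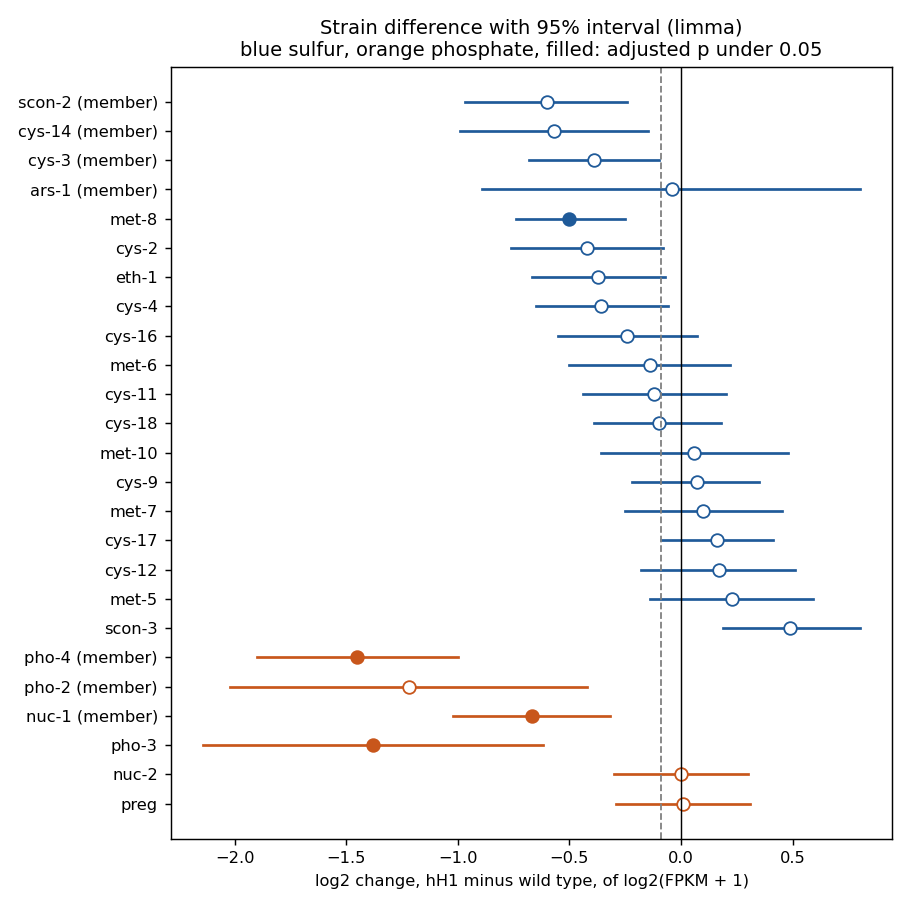
Log2 change between strains (horizontal axis, *hH1* minus wild type, on log2(FPKM + 1)) with its 95% interval from limma, for 7 of the 8 genes (marked member) and 18 other sulfur and phosphate genes. Filled symbols have an adjusted p under 0.05, and the dashed line is the median of all tested genes, -0.09. *pho-4*, *pho-3*, *pho-2* and *nuc-1* lie farthest to the left, and *nuc-2* and *preg* lie at 0.00 and 0.01.

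The phosphate genes begin with the activator. *nuc-1* measured 30.2, 22.1 and 24.0 FPKM in the wild type, against 14.6, 14.9 and 17.2 FPKM in the mutant. Every mutant library was below every wild-type library. The log2 change was -0.67 ± 0.16 (SE, adjusted p = 0.0399, limma), close to the threshold. It kept its direction in all alternatives and lost the call in most of them, with an adjusted p of 0.059 under median centring of the libraries, of 0.0929 after removal of the length trend (log2 change -0.50) and of 0.061 to 0.161 when any 1 of the 6 libraries was left out.

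*pho-4* encodes a high-affinity phosphate permease that takes up phosphate with sodium, and is known to be repressed by phosphate. It measured 23.8, 18.7 and 16.4 FPKM in the wild type, against 5.47, 8.47 and 5.81 FPKM in the mutant, so that the highest mutant library was well below the lowest wild-type library. With a log2 change of -1.45 ± 0.20 (SE, adjusted p = 0.00644, limma) it held rank 30 of 7208 from the lowest change. After removal of the length trend the change was -1.20 (adjusted p = 0.0185). Without the first wild-type library, its highest, the change was -1.31 and the call was lost (adjusted p = 0.0592).

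*pho-4* is the only gene of the 8 with more than 1 transcript in the table, and the lower level was seen in the main transcript. NCU09564T1 was at 22.9, 17.4 and 14.2 FPKM in wild-type libraries and fell to 3.79, 6.41 and 5.81 FPKM in mutant libraries. When each transcript was tested by limma, its log2 change was -1.60 ± 0.24 (SE, adjusted p = 0.0461). NCU09564T0 was at 0.888 to 2.22 FPKM in wild-type libraries, against 1.68, 2.06 and 0 FPKM in mutant libraries, a log2 change of -0.25 ± 0.51 (SE, adjusted p = 0.799, limma). The main transcript made up 86.5% to 96.3% of the gene in the wild type and 69.3%, 75.7% and 100% in the mutant. These shares overlap, and they depend on how Cufflinks divided reads between the transcripts.

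*pho-5* encodes a second high-affinity phosphate permease, of another protein family. It measured 0.551, 1.29 and 1.5 FPKM in the wild type, against values of 0, 0.343 and 0.533 FPKM in the mutant. The groups did not overlap, but the lowest wild-type library (0.551 FPKM) and the highest mutant library (0.533 FPKM) were nearly equal. By its gene length, these values stand for at most 7.0 fragments in that wild-type library and at most 6.0 in that mutant library, and the gene was too low to be tested. The library listed at 0 is the one with many low genes at 0. The difference in mean log2(FPKM + 1) was -0.70 with all libraries and -0.53 without that library.

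*pho-2* encodes the repressible alkaline phosphatase, which frees phosphate from organic esters outside the cell. It measured 3.42, 2.44 and 1.64 FPKM in the wild type, against values of 0, 0.559 and 1.05 FPKM in the mutant, again with all mutant libraries below the wild type. The log2 change was -1.22 (95% interval -2.02 to -0.42, adjusted p = 0.077 from limma) and was not called. The first mutant library is again the one at 0, and without it the change was -0.94 (adjusted p = 0.134). It was -1.13 after removal of the length trend (adjusted p = 0.113), and -2.56 with a pseudocount of 0.1 FPKM in place of 1.

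The gene table names 3 further genes of this pathway by symbol, and 1 of them was called, lower, where 3.26% of all tested genes were. *pho-3*, the repressible acid phosphatase, was at 7.22, 4.66 and 2.73 FPKM in wild-type libraries, against 1.16, 1.87 and 0.582 FPKM in mutant libraries. All mutant libraries were lower, and limma gave a log2 change of -1.38 ± 0.34 (SE) with an adjusted p of 0.0474. The change was -1.38 also after removal of the length trend (adjusted p = 0.0684), where the call was lost. Of the 9 alternatives with all libraries, only 2 kept the call (adjusted p of 0.0375 to 0.118 over the 9, limma). The call was lost in 5 of the 6 fits that left out 1 library as well (log2 changes of -1.67 to -1.10 over the 6 fits). The genes upstream of NUC-1 had similar means in both strains. *preg*, the cyclin that holds NUC-1 back, was at 24.7 to 28.2 FPKM in wild-type and 24.7 to 29.7 FPKM in mutant libraries (log2 change 0.01, 95% interval -0.29 to 0.31). *nuc-2*, which acts against PREG, was at 20.3 to 21.5 FPKM in wild-type and 18.9 to 22.4 FPKM in mutant libraries (log2 change 0.00, 95% interval -0.30 to 0.30). Neither passed the test, and both intervals lie above -0.67, the change of *nuc-1* itself. With the length trend removed, the change of *nuc-2*, which spans 4723 bases, was 0.29, and that of *preg* was 0.04.

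On the sulfur side, the activator *cys-3* measured 92.2, 84.2 and 71.7 FPKM in the wild type, against 67.5, 62.1 and 58.3 FPKM in the mutant. The groups did not overlap, but the lowest wild-type library (71.7 FPKM) was close to the highest mutant library (67.5 FPKM). The log2 change was -0.39 (95% interval -0.68 to -0.10, adjusted p = 0.105 from limma) and was not called. It was -0.09 after removal of the length trend (adjusted p = 0.743). The span of *cys-3* overlaps that of NCU03535 by 1563 bases, and that gene had a mean of 108 FPKM in the wild type and 72.7 FPKM in the mutant (log2 change -0.57, adjusted p = 0.247). Whether strand was used in counting is not stated, so reads of the overlap may belong to either gene.

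*scon-2*, the F-box gene that acts against CYS-3 and is itself known to be turned on by it, measured 32.2, 22.8 and 28.4 FPKM in the wild type, against 20.3, 16.5 and 16.8 FPKM in the mutant. All mutant libraries were below the wild type. The log2 change was -0.60 (95% interval -0.97 to -0.24, adjusted p = 0.06 from limma), which just missed the threshold. Among genes averaging 5 FPKM or more it was called at 0.0492, and after removal of the length trend the change was -0.32 (adjusted p = 0.291).

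*cys-14* encodes sulfate permease II, the sulfate transporter of mycelia. It measured 19.7, 27.1 and 29.8 FPKM in the wild type, against 13.8, 16.4 and 20.1 FPKM in the mutant, and the highest mutant library lay just above the lowest wild-type library. The log2 change was -0.57 (95% interval -0.99 to -0.15, adjusted p = 0.1 from limma), and -0.30 after removal of the length trend.

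*ars-1* encodes arylsulfatase, which frees sulfate from aromatic esters. It measured 0.719, 1.99 and 1.56 FPKM in the wild type, against 2.67, 0.627 and 1.01 FPKM in the mutant. The first mutant library was the highest of all 6 and the second the lowest, so the groups overlapped entirely. The log2 change was -0.04 (95% interval -0.89 to 0.80, adjusted p = 0.956 from limma), an interval that covers changes as large as those of *cys-14* and *scon-2*, and its sign turned when the libraries were centred (0.06). It was -0.04 also after removal of the length trend.

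Of the 4 sulfur genes, then, 0 were called by limma and 3 had an unadjusted p under 0.05, as did 25.9% of all tested genes. The gene table names 15 other genes of sulfur control and of cysteine and methionine synthesis by symbol. 1 of the 15 was called, lower in the mutant, where 3.26% of all tested genes were. The 15 had changes from -0.50 to 0.49 and a median of -0.10, next to -0.09 for all tested genes. The gene called was *met-8*, for methionine synthase, at 911, 1010 and 1060 FPKM in wild-type and 688, 736 and 690 FPKM in mutant libraries. Its log2 change was -0.50 ± 0.11 (SE, adjusted p = 0.0342, limma), and the call was lost after removal of the length trend (log2 change -0.28, adjusted p = 0.185). Of the 10 alternatives with all libraries, 5 kept the call. Each of the 6 fits that left out 1 library lost it (adjusted p of 0.0628 to 0.101, limma). The other genes of the 3 highest in the wild type were not called. *cys-18* had means of 954 ± 119 FPKM in the wild type and 886 ± 88.6 FPKM in the mutant (SD, n = 3). *eth-1*, for S-adenosylmethionine synthetase, had means of 521 ± 40.1 and 404 ± 62.8 FPKM. After removal of the length trend their log2 changes were -0.05 and -0.19. *scon-3*, the SKP1 subunit that joins SCON-2 to its ubiquitin ligase, went the other way than *scon-2*, at 202, 216 and 263 FPKM in wild-type and 351, 279 and 327 FPKM in mutant libraries. All mutant libraries were higher, and the log2 change of 0.49 (95% interval 0.19 to 0.80) was not called (adjusted p = 0.0651 from limma), but was with each library centred (adjusted p = 0.0324). It was 0.43 after removal of the length trend (adjusted p = 0.0932).

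Ratios of genes within a library do not depend on how libraries were scaled to each other. Where the genes of a pair differ in span, a ratio can still hold the trend with gene length. The spans are 1729 bases for *scon-3*, 4626 for *scon-2*, 2262 for *preg*, 3190 for *nuc-1* and 4123 for *pho-4*. The ratios were chosen after the values had been seen and are given without a test. The ratio of *pho-4* to *nuc-1* was 0.789, 0.845 and 0.682 in the wild type and 0.375, 0.57 and 0.337 in the mutant, so the permease was lower in relation to its activator in each mutant library. The ratio of *preg* to *nuc-1* was 0.882, 1.28 and 1.03 in the wild type and 1.69, 1.75 and 1.73 in the mutant. As *preg* had similar means in both strains, this ratio mostly restates the lower level of *nuc-1*. On the sulfur side, the ratio of *scon-3* to *scon-2* was 6.28, 9.48 and 9.25 in the wild type and 17.3, 17.0 and 19.5 in the mutant. That these did not overlap follows from the single genes, *scon-3* being higher and *scon-2* lower without overlap. With the length trend removed, the log2 changes of *scon-3* and *scon-2* were 0.43 and -0.32, against 0.49 and -0.60 with it. The ratio of *scon-2* to *cys-3* (0.27 to 0.396 in the wild type, 0.265 to 0.3 in the mutant) and that of *cys-14* to *cys-3* (0.214 to 0.416 and 0.205 to 0.345) overlapped between the strains, as did that of *nuc-1* to *cys-3* (0.263 to 0.335 and 0.216 to 0.295). *cys-14* and *pho-4*, both permease genes of similar length, had a ratio of *pho-4* to *cys-14* of 1.21, 0.689 and 0.55 in the wild type and 0.395, 0.516 and 0.289 in the mutant.

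**Figure D3:**
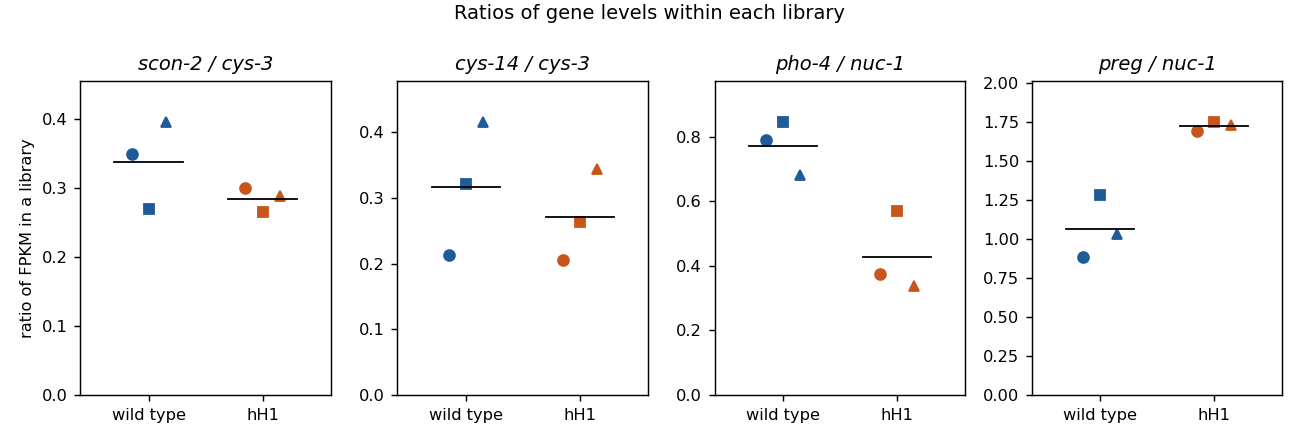
Ratio of FPKM of a pair of genes within each library (vertical axes, each from 0) in the wild type (blue) and the *hH1* mutant (orange), with symbols for libraries in table order and lines for means. The ratio of *pho-4* to *nuc-1* lies lower in all 3 mutant libraries and that of *preg* to *nuc-1* higher, while the ratios of *scon-2* and *cys-14* to *cys-3* overlap.

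The genes whose levels followed an activator most closely over the 6 libraries were not among the members. For *nuc-1*, the Pearson correlation of log2(FPKM + 1) was highest with NCU00681 (0.9969), NCU01208 (0.9948) and NCU04469 (0.9940), and 510 genes lay above 0.9. The phosphate genes *pho-2* (0.93) and *pho-4* (0.92) and the sulfur gene *scon-2* (0.90) were above or at 0.9 as well. *cys-3* was at 0.83, *cys-14* at 0.64 and *ars-1* at -0.21. For *cys-3* the highest were NCU08164 (0.9963), NCU05683 (0.9946) and NCU06522 (0.9891), with *pho-4* at 0.88, *scon-2* at 0.84, *nuc-1* at 0.83, *pho-2* at 0.75, *cys-14* at 0.37 and *ars-1* at 0.06. These correlations over 6 libraries contain the strain difference and whatever else the libraries share, and are descriptions.

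The genes next to the members on the chromosomes were also read, a choice made after the values had been seen. Of 16 such genes 11 could be tested. By limma 0 of them were called and 2 had an unadjusted p under 0.05, where 4.99% and 25.9% of all tested genes did, and their median log2 change was -0.25. Beside *pho-4*, NCU09562 had means of 85.4 FPKM in the wild type and 83.0 FPKM in the mutant (log2 change -0.01), and NCU12035, which overlaps the span of *pho-4* by 586 bases, was at 0.387 and 0.117 FPKM. NCU01375, which lies 66 bases from *pho-2* and was too low to be tested, measured 0, 4.25 and 0.572 FPKM in the wild-type libraries and was at 0 in every mutant one. *nuc-1*, the only member on the linkage group of the mating type locus, starts 2418 kb from *matA-1*.

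**Figure D4:**
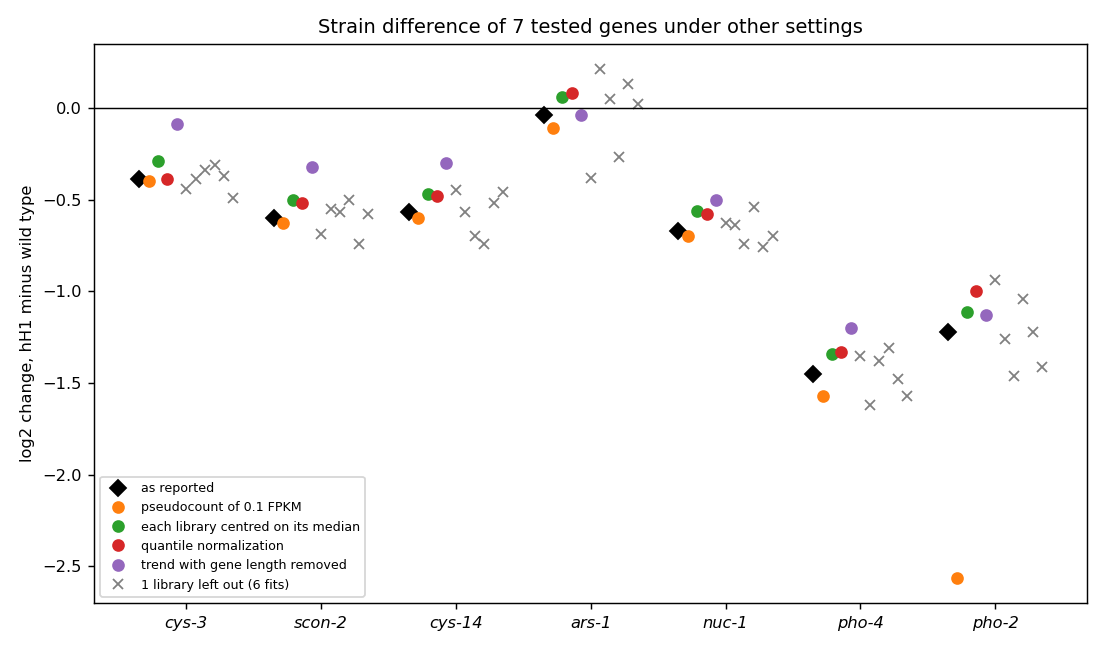
Log2 change between strains (vertical axis, *hH1* minus wild type) of the 7 tested genes as reported (black diamonds), with another pseudocount, with libraries centred, quantile normalized or freed of the trend with gene length (coloured circles), and with 1 library left out (grey crosses). *pho-4* stays between -1.62 and -1.20 and *nuc-1* between -0.76 and -0.50, *cys-3* comes to -0.09 without the length trend, and *ars-1* lies on both sides of 0.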

How the data were processed

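RNA-seq of 6 samples of the 22 in the series was used; the others were not analysed here. The authors aligned strand-specific, rRNA-depleted reads to NC12 with TopHat (TopHat2 2.0.14 in the submitters' processing notes, which also name Cuffnorm) and deposited FPKM per transcript, estimated with Cufflinks. Scaling between libraries is not stated. Columns carry the strain but not the labels' replicate number, and 0 columns were left unused.

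The 10785 transcripts were summed to 9730 genes. Symbols, positions and lengths came from the RefSeq gene table of the same assembly, which listed 9729 of them; lengths are gene spans with introns. limma 3.58.1 (R 4.3.3; lmFit, eBayes with a trend) was run on log2(FPKM + 1) for the 7208 genes averaging 1 FPKM or more, with two-sided p-values adjusted after Benjamini and Hochberg and called under 0.05. Log2 changes are on this scale, which understates changes of low genes. In simulated data with 7208 genes it called 63 of 100 genes given a log2 change of 1 in size and 89 of 100 given one of 2, and 5.00% of calls were false. The simulated noise was normal and independent for each gene, without the length trend or other differences that libraries share. These rates need not hold for the real data. Depth was fitted to steps of low values in 8831 genes with 1 transcript, as the depth at which most values came within 0.1 of whole fragments after 190 bases were subtracted from each length (43.5% to 47.2% whole, against medians of 16.2% to 19.2% over all depths tried). Simulated depths were recovered within 1.64%. Other steps ran in Python 3.11.15 (pandas 2.3.3, numpy 2.4.6, scipy 1.17.1), and figures were drawn with matplotlib 3.10.9.

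The members, lists and tests were chosen with earlier results of these data known. The other pathway genes were all genes of the table with a symbol *cys*, *scon*, *ars*, *met* or *eth* and a number, or *pho*, *nuc*, *pcon*, *preg* or *pgov*. Named were the members, called pathway genes, the 3 highest of each pathway, regulators, checks and the 3 genes most like *cys-3* and *nuc-1*. *gpd-1*, the neighbouring genes and the ratios were chosen after their values had been seen. *scon-1*, *cys-13* and *pgov* had no entry by symbol and were not analysed here. No sequence was used. Alternatives were the pseudocount, the filter, centring, quantile normalization, removal of the length trend (lowess per library), the variance settings, single transcripts, and leaving out each library; testing only genes above 0 in all libraries was added after the data had been seen, as were the variance settings for the other pathway genes.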

Additional observations from a re-analysis of the deposited data

How the results depend on the processing

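The number of called genes was 360, and was 188 without a filter on low values, 229 after removal of the length trend, 135 without the variance trend, 45 with single transcripts, and 29 to 372 when 1 library was left out (29 without the first wild-type library). Centring turned the share of higher calls from 34.7% to 66.7%, and quantile normalization and removal of the length trend gave 47.7% and 50.2%. Of the 2 calls among the 18 other pathway genes, *met-8* alone remained with a pseudocount of 0.1, a minimum mean of 5 FPKM or quantile normalization. With centring both *met-8* and *pho-3* lost the call, and *scon-3*, higher in the mutant, gained it. The count was 0 by limma without a filter, after removal of the length trend and without the variance trend, with 6, 4 and 6 genes at an unadjusted p under 0.05. With 1 library left out it was 0 to 2, and the 2 without the third wild-type library were *pho-3* and *scon-3*.

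The log2 change of *nuc-1* stayed negative but was not called without a filter (-0.67), with centring (-0.56), quantile normalization (-0.58), the length trend removed (-0.50), no variance trend (-0.67) or single transcripts (-0.67), nor with 1 library left out (-0.76 to -0.54). *pho-4* was called under all alternatives except for its minor transcript alone (-0.25) and 1 of the 6 fits with a library left out (-1.62 to -1.31 over the 6). *scon-2* was called among genes of at least 5 FPKM (-0.60). *pho-5*, without a test, went from -0.70 to -1.90 with a pseudocount of 0.1. *ars-1* turned to 0.06 with centring and 0.08 with quantile normalization, and ranged from -0.38 to 0.21 with 1 library left out. With 1 library left out *preg* (-0.06 to 0.07) and *nuc-2* (-0.04 to 0.07) lay on both sides of 0. The minor transcript of *eth-1* was at 0.13, and *cys-18* was at 0.00 with centring. The causes were not tested beyond what each alternative leaves out. No paired analysis was possible because the columns carry no replicate number of the labels. Depth limits *pho-2*, *pho-5* and *ars-1* most, where 1 FPKM stands for at most 10.4 to 26.6 fragments.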
